A study of Mus musculus with 12 samples.

Results

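The genes described here encode the adult hemoglobin chains and 1 enzyme of red cell heme synthesis. They are the alpha globin genes Hba-a1 and Hba-a2, the beta globin genes Hbb-bs and Hbb-bt, and Alas2. They were taken by name from a count matrix of 47643 genes, of which 18571 had at least 1 count. All 5 were found.

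RNA was sequenced from sorted brain cells of 5 old male p16-3MR mice of C57BL/6 background, 113, 115, 116, 116 and 116 weeks of age (mice 1 to 5). The p16-3MR transgene uses the p16 promoter, so that cells with an active promoter make a single reporter chain that fluoresces red (mRFP), emits light (Renilla luciferase) and can activate a prodrug (truncated HSV-TK). All mice carried it and none is labelled as treated. Each mouse gave 1 sample of cells with low (RFPneg) and 1 sample of cells with high fluorescence (RFPpos), called RFPLow and RFPHigh in the study's methods. Both populations were sorted as viable events that took up Draq5, a dye that binds DNA, after myelin had been removed on Percoll. Perfusion of the mice is not given in the sources used here.

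The libraries count tags near the 3′ end of transcripts, so that counts do not grow with transcript length. The counts on genes ranged from 177287 to 415834 in the RFPneg samples and from 222560 to 289713 in the RFPpos samples. Counts assigned to no gene made up between 32.1% and 37.2% of all counts in RFPneg and between 38.4% and 48.6% in RFPpos, with the highest share in mouse 5, and their part in the results was not tested. CPM here scales a gene's count to the library's total over all genes, and 1 count was worth between 2.40 and 5.64 CPM.

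Hemoglobin is built from alpha and beta globin chains, each of which holds a heme group that binds oxygen. Its transcripts are made in erythroid precursors in the marrow, are still abundant in young red cells that have lost the nucleus, and fade as these cells mature. Alas2 is the erythroid form of the enzyme that starts heme synthesis, and most other cells use Alas1 for this step. In brain tissue globin transcripts are known both from blood within the vessels and, at low levels, from some neurons and glia.

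The alpha globin genes lie on chromosome 11 (GRCm38), Hba-a1 (ENSMUSG00000069919) at chr11:32283511-32284465 and Hba-a2 (ENSMUSG00000069917) at chr11:32296489-32297298, both on the plus strand, with 12023 bases between them. The beta globin genes lie on the minus strand of chromosome 7, Hbb-bt (ENSMUSG00000073940) at chr7:103812524-103813996 and Hbb-bs (ENSMUSG00000052305) at chr7:103826534-103828096, with 12537 bases between them. Each of the 4 globin genes has 3 exons in its longest coding transcript. Alas2 (ENSMUSG00000025270) has 11 exons at chrX:150547375-150570638 on the plus strand. The members of each globin pair are near copies, which bears on how the 3′ tags could be assigned. Over the 538 bases that aligned, the longest coding transcripts of Hba-a1 and Hba-a2 differed at 1 base. The last 100 bases of Hba-a1 matched Hba-a2 at every base, and of the last 100 bases of Hba-a2, 84 aligned to Hba-a1 with 0 differences. The split of alpha globin counts between Hba-a1 and Hba-a2 is therefore uncertain, and their sum is the firmer value. The transcripts of Hbb-bs and Hbb-bt were 92.7% identical over 626 aligned bases and shared a run of 430 bases. Of the last 100 bases of Hbb-bs, 99 aligned to Hbb-bt, with 29 differences, so that tags close to the 3′ end of these genes can be told apart.

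All 5 genes had an entry in the RefSeq promoter table (GRCm38.p6). The upstream sequences of Hba-a2, Hbb-bs and Alas2 are shown because genes that are used together in red cell precursors carry known short motifs there. Each is given 5′ to 3′ on the strand of its gene and holds no annotated exon. Those of Hba-a2 and Alas2 end at the GENCODE start, before the RefSeq start, and that of Hbb-bs ends at the RefSeq start and lies in an intron of another annotated Hbb-bs transcript that starts further upstream. Capitals mark the motifs searched on both strands. These were TATAA for the TATA box, CCAAT for the box of that name, the letters CACCC that Klf factors are known to bind, and AGATAA for GATA factors.
Hba-a2, chr11:32296369-32296488, plus strand: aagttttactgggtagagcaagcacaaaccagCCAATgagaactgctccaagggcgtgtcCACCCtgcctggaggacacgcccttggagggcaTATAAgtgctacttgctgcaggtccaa
Hbb-bs, chr7:103827929-103828011, minus strand: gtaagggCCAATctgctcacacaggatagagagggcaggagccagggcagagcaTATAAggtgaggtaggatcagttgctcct
Alas2, chrX:150547255-150547374, plus strand: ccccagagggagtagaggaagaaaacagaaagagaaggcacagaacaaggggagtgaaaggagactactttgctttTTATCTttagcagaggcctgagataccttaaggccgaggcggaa
In the 250 bases before the RefSeq start, all 4 globin genes held TATAA, and all 4 also held the CCAAT letters and at least 1 copy of CACCC. The TATAA nearest to the start began 27 bases before it in Hba-a1, 30 in Hba-a2, 29 in Hbb-bs and 28 in Hbb-bt. AGATAA was found 1 time in Hbb-bs, 210 bases before the start, and 1 time in Alas2 as its reverse complement, 86 bases before the start, where it is in capitals above. Alas2 also held TATAA and CACCC letters outside the stretch shown, and no CCAAT. Among 32851 promoter windows of the same length, 22.8% held TATAA, 33.8% CCAAT, 52.0% CACCC and 9.99% AGATAA. Of the 3 CCAAT matches of Hbb-bt, those at 80 and 75 bases before the start adjoined each other on opposite strands, and the third lay 36 bases before the start. The windows of Hba-a1 and Hba-a2 were identical over the 247 bases that aligned, whereas those of Hbb-bs and Hbb-bt were 71.7% identical.

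Hbb-bs, the more abundant beta globin gene, was measured at 705, 602, 1020, 1288 and 317 CPM in the RFPneg samples of mice 1 to 5. In the RFPpos samples of the same mice it was at 71.9, 3.45, 0, 43.9 and 57.7 CPM. Every RFPneg sample was above every RFPpos sample, and the gap was narrowest in mouse 5. The counts behind these levels were 95 to 424 in the RFPneg samples and 0 to 16 in the RFPpos samples. The mean was 786 ± 376 CPM (SD, n = 5) in RFPneg and 35.4 ± 32.3 CPM (SD, n = 5) in RFPpos. By this mean Hbb-bs was the gene of rank 70 among 17301 genes with counts in RFPneg and of rank 4346 among 15564 in RFPpos. Within mice, the RFPneg level was 9.81 times the RFPpos level in mouse 1 (exact 95% counting interval 5.81 to 17.7), 29.3 times in mouse 4 (16.2 to 59.3) and 5.50 times in mouse 5 (3.12 to 10.4). In mouse 2 it was 174 times, on 1 count in RFPpos, with an interval of 30.7 to 6943. In mouse 3, where RFPpos had 0 counts, the interval began at 61.4. The ratio thus differed between mice by more than counting error, since the intervals of mice 1 and 5 did not reach that of mouse 3. Over many genes, samples of the same population also differed by more than counting error (chi-squared per degree of freedom 2.19 to 6.65). Whether the spread of Hbb-bs is unusual beside this was not tested. In bulk samples, fewer cells of a type and less RNA per cell cannot be told apart.

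Hbb-bt, the minor beta globin gene, had 47, 36, 128, 111 and 12 counts in the RFPneg samples of mice 1 to 5 and 5, 2, 0, 1 and 2 counts in the RFPpos samples. These were 249 ± 151 CPM (SD, n = 5) and 8.32 ± 8.52 CPM (SD, n = 5). Again no RFPpos sample reached an RFPneg sample, and mouse 5 had the lowest RFPneg level.

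The alpha globin genes had fewer counts. Hba-a1 had 20, 13, 36, 30 and 2 counts in the RFPneg samples of mice 1 to 5 and 3, 0, 0, 1 and 2 counts in the RFPpos samples. Its groups overlapped because of mouse 5, in which RFPneg, at 6.67 CPM, was not above RFPpos. Hba-a2 had 13, 13, 18, 17 and 7 counts in the RFPneg samples and 2, 1, 0, 2 and 4 counts in the RFPpos samples, and its groups did not overlap. Summed over both genes, the alpha level was 134 ± 64.4 CPM (SD, n = 5) in RFPneg and between 0 and 24.7 CPM in RFPpos. The summed alpha level of RFPneg was between 1.22 times (mouse 5) and 38.4 times (mouse 2) that of RFPpos in the 4 mice with alpha counts in RFPpos.

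Alas2 had 0, 0, 2, 3 and 2 counts in the RFPneg samples and 0 in every RFPpos sample. With 7 counts it lay under the minimum of 10 counts for a test. Fitted among all genes with at least 1 count, it was not called by edgeR's quasi-likelihood test with Benjamini-Hochberg adjustment (adjusted p = 0.692). A difference in Alas2 between the populations was therefore not detectable at this depth.

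**Figure D1:**
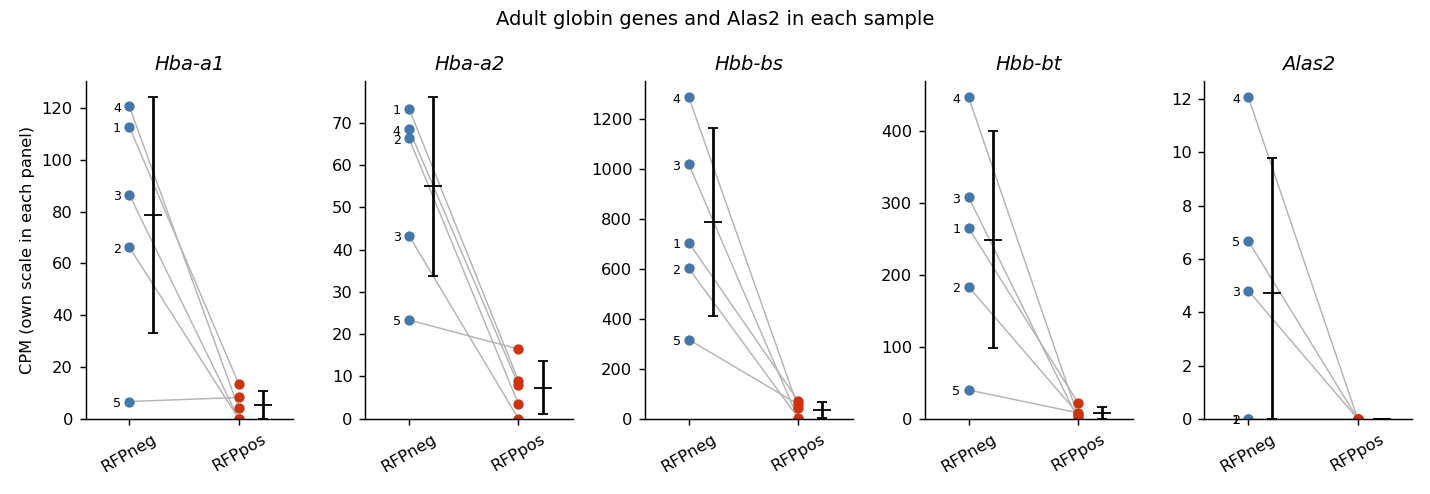
CPM of the 5 genes in the RFPneg (blue) and RFPpos (red) samples, with grey lines joining the samples of 1 mouse, mouse numbers at the left, and bars for the mean ± SD (cut at 0, n = 5 mice). Each panel has its own scale. Hbb-bs fell from between 317 and 1288 CPM to at most 71.9 CPM, and mouse 5 had the lowest RFPneg level for each of the 4 globins.

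Over the 4 globins together, the RFPneg samples held 1156, 918, 1457, 1924 and 387 CPM in mice 1 to 5, which is between 0.0387% and 0.192% of the counts of a library. The RFPpos samples held 117, 13.8, 0, 59.9 and 90.6 CPM. RFPpos of mouse 3 had no count of any of the 5 genes in 223052 counts, for which the exact 95% Poisson interval reaches 16.5 CPM, whereas RFPneg of the same mouse had 608. The order of the mice was not the same in both populations. Mouse 5 was lowest in RFPneg and above mice 2, 3 and 4 in RFPpos, whereas mouse 3 was above mice 1, 2 and 5 in RFPneg and at 0 in RFPpos.

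The comparison of RFPpos with RFPneg cells asked which genes differ between cells with high and low p16 reporter signal. It was fitted over 12270 genes with at least 10 counts in the 10 samples, with the mouse as a block, and calls needed an adjusted p under 0.05 together with a log2 fold change beyond 1 in either direction. In all, 828 genes were called lower and 343 higher in RFPpos. All 4 globin genes reached the test and were called lower, against 6.75% of all genes tested, and 0 were called higher, against 2.8%. Of these 4 genes, 3 had every RFPneg sample above every RFPpos sample, against 6.43% of all genes tested, and the same 3 were lower in all 5 mice, against 14.1%. By edgeR's quasi-likelihood test with Benjamini-Hochberg adjustment, the log2 fold change of Hbb-bs was −4.39 (SE 0.27, adjusted p = 8.97e-56, lower in 5 of 5 mice). Hbb-bt had a log2 fold change of −4.70 (SE 0.40, adjusted p = 7.40e-30, lower in 5 of 5 mice, edgeR). Hba-a2 had −2.73 (SE 0.61, adjusted p = 0.000186, lower in 5 of 5 mice, edgeR) and Hba-a1 −3.72 (SE 0.60, adjusted p = 3.67e-08, lower in 4 of 5 mice, edgeR). These correspond to 20.9-fold, 26.0-fold, 6.62-fold and 13.2-fold lower levels, beside a median log2 fold change of −0.15 over all genes tested. The values of Hba-a1 and Hba-a2 are not distinct results, since the split of counts between them is uncertain. The counts out of 4 genes given above treat them as separate all the same. A fit of their summed counts was not made.

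The prior degrees of freedom of this fit were estimated as infinite, so that the p-values and SEs rest on a spread pooled over genes. Each SE was derived from the log2 fold change and the test statistic, and it does not measure the spread between mice. With a quasi-dispersion adjusted for small counts, an alternative chosen after seeing the data, the prior degrees of freedom were 20.3 and the adjusted p of Hbb-bs was 2.65e-08 (edgeR). Over all alternatives the adjusted p of Hbb-bs ranged from 6.10e-82 to 5.20e-05 (edgeR or DESeq2). Without mouse 5 the log2 fold changes were −4.97 for Hbb-bs, −4.38 for Hba-a1 and −3.48 for Hba-a2, and without mouse 1 that of Hbb-bt was −5.36. DESeq2 gave −5.13 for Hbb-bs, with a larger SE of 1.05. Scaled to the summed counts of 20 microglia genes, 5196 genes were called lower and 7 higher. The median of all genes then moved by −1.13 to −1.28, and Hbb-bs lay 4.27 under that median on the log2 scale (−5.55).

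The counts of the 2 beta globin genes were compared within libraries, where library size does not enter. In the RFPneg samples Hbb-bt made up 27.3%, 23.4%, 23.2%, 25.8% and 11.2% of the beta globin counts in mice 1 to 5. The share of mouse 5 stood below the other RFPneg samples, with a 95% Wilson interval of 6.53% to 18.6% on 107 counts. In the RFPpos samples the share was 23.8% of 21 counts in mouse 1, 66.7% of 3 in mouse 2, 8.33% of 12 in mouse 4 and 12.5% of 16 in mouse 5. The mean difference within these 4 mice, RFPpos minus RFPneg, was 5.91 percentage points, with an SD of 26.2 (exact sign-flip permutation test, two-sided, p = 0.875). With 4 pairs that test cannot go below 0.125. Summed over samples the share was 23.6% (95% Wilson interval 21.4% to 25.9%) in RFPneg and 19.2% (10.8% to 31.9%) in RFPpos. A difference in the beta globin split was not detectable at this depth.

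The alpha globins made up 16.1%, 14.4%, 8.91%, 9.83% and 7.76% of the adult globin counts in the RFPneg samples of mice 1 to 5. In RFPpos they made up 5 of 26 counts in mouse 1, 1 of 4 in mouse 2, 3 of 15 in mouse 4 and 6 of 22 in mouse 5, or between 19.2% and 27.3%. It was higher in RFPpos in each of these 4 mice, and the groups did not overlap. The mean difference was 10.8 percentage points, with an SD of 6.71 (exact sign-flip permutation test, two-sided, p = 0.125, the smallest that 4 pairs allow). Summed over samples the share was 10.7% (95% Wilson interval 9.24% to 12.3%) in RFPneg and 22.4% (14.1% to 33.7%) in RFPpos. Without the pairing, an exact permutation test over the 9 samples with counts gave a difference of 11.5 percentage points (two-sided, p = 0.00794, the smallest that 5 against 4 samples allow). That test treats the samples as independent, although both populations came from the same mice, so that it does not replace the paired test. The RFPpos share rests on 15 alpha globin counts in all. How tags that match both alpha genes were counted is not given in the sources used here, so that the share is not a ratio of chains.

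**Figure D2:**
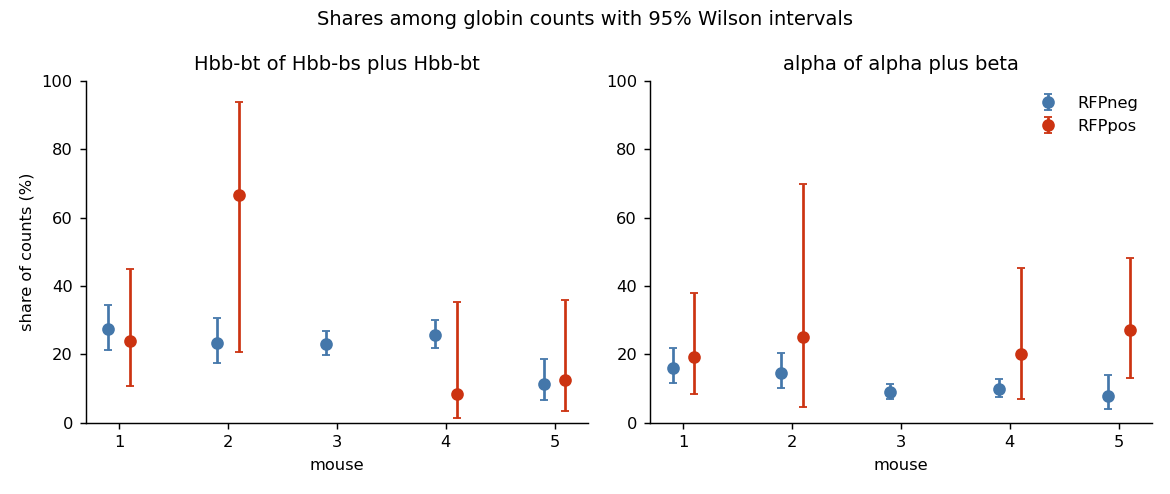
Share of Hbb-bt among Hbb-bs plus Hbb-bt counts (left) and of Hba-a1 plus Hba-a2 among the counts of all 4 globins (right) by mouse, in percent with 95% Wilson intervals, for RFPneg (blue) and RFPpos (red). RFPpos of mouse 3 had no globin count and has no point. The RFPpos intervals are wide, and the alpha share of RFPpos lay above that of RFPneg in the 4 mice that have both.

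Other globins and erythroid genes were described from lists of genes known for these roles. Of 9 other globins, 5 had no count in any sample, among them the embryonic Hbb-bh1 and Hba-x and the muscle globin Mb (myoglobin). The embryonic Hbb-y had 4 counts in RFPneg of mouse 2 and 2 in RFPneg of mouse 3, and none in RFPpos. Hbq1b and the neuronal globin Ngb (neuroglobin) had 1 count each, in RFPneg. Cygb (cytoglobin), the only one of this list with enough counts for the test, was not called, with 15 counts in RFPneg and 3 in RFPpos (RFPneg level 4.59 times that of RFPpos, exact 95% counting interval 1.30 to 24.8, log2 fold change −1.97, edgeR adjusted p = 0.432). The list summed to 19.2 ± 11.9 CPM (SD, n = 5) in RFPneg and 2.69 ± 4.02 CPM (SD, n = 5) in RFPpos.

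Genes of the red cell membrane were near the limit of the depth. Of 13 genes, 12 had counts, 5 of them in RFPpos, and 5 were tested. Rhd, a Rhesus antigen, was called lower, with 5, 3, 5, 4 and 1 counts in RFPneg and 0 in every RFPpos sample (edgeR adjusted p = 0.0254, at least 5.51-fold lower against 3 counts over the group). Slc4a1, the band 3 anion exchanger, had 9 counts in RFPneg and 0 in RFPpos and was not tested. Epb41 (protein 4.1), which many cell types express, and Ermap were not called, with log2 fold changes of 0.69 and 0.36. The median log2 fold change of the 5 tested genes was −1.43, also with the 2 genes at 0 in RFPpos set to their bounds. The list summed to 124, 96.9, 69.7, 92.6 and 16.7 CPM in RFPneg of mice 1 to 5 and to between 12.4 and 53.9 CPM in RFPpos. Mouse 5 had the lowest sum in both populations.

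Of 20 erythroid and reticulocyte genes, 19 were matched, 15 had counts, 10 had counts in RFPpos and 11 were tested. Among these, 2 were called lower and 1 higher, and the median log2 fold change was −0.52. The transcription factors Gata1 and Gfi1b and the gene Trim58 had no count in any sample, and the erythroid factor Klf1 had 2 counts, both in RFPneg. Car2, a carbonic anhydrase of red cells that oligodendrocytes also make, was lower in RFPpos (673 ± 305 against 57.0 ± 44.0 CPM, SD, n = 5, log2 fold change −3.44, edgeR adjusted p = 2.37e-39). Tfrc, the transferrin receptor, which is also present on brain endothelium, was lower as well (156 ± 83.9 against 20.3 ± 19.0 CPM, SD, n = 5, log2 fold change −2.95, edgeR adjusted p = 4.97e-13). Tent5c was higher (71.4 ± 20.3 against 171 ± 29.8 CPM, SD, n = 5, log2 fold change 1.34, edgeR adjusted p = 4.79e-05), and it lay above its RFPneg level in 5 of 5 mice. Prdx2, an abundant red cell peroxidase found in most cells, had a log2 fold change of −0.84 and was not called (edgeR adjusted p = 0.0783). The most abundant gene of the list was Car2 over all 10 samples and in RFPneg, and in RFPpos Tent5c was above it, and the list summed to 1272 ± 209 CPM (SD, n = 5) in RFPneg and 524 ± 68.3 CPM (SD, n = 5) in RFPpos. In RFPneg, Alas2 and Slc4a1 had 7 and 9 counts beside 1585 counts of the 4 globins.

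Most genes of general heme synthesis and heme breakdown were not called. All 10 heme synthesis genes were tested, and Cpox (coproporphyrinogen oxidase) alone was called, from 203 ± 46.3 CPM (SD, n = 5) in RFPneg to 80.9 ± 15.8 CPM (SD, n = 5) in RFPpos (log2 fold change −1.23, edgeR adjusted p = 9.89e-05). Alas1, the form of the first enzyme that most cells use, was at 64.7 ± 8.08 and 37.2 ± 14.9 CPM (SD, n = 5) and was not called (log2 fold change −0.76, edgeR adjusted p = 0.270). Fech, which inserts iron into heme, and Urod had log2 fold changes of 0.26 and −0.67. The median of this list was −0.67, and it summed to 420 ± 45.9 CPM (SD, n = 5) in RFPneg and 240 ± 31.9 CPM (SD, n = 5) in RFPpos. Of 9 genes for the clearance of heme and hemoglobin, 8 were tested and Lrp1, a receptor for heme bound to hemopexin among many other ligands, was called higher (246 ± 46.8 against 500.01 ± 64.6 CPM, SD, n = 5, log2 fold change 1.11, edgeR adjusted p = 4.83e-06). The heme oxygenases Hmox1 and Hmox2 had log2 fold changes of 0.67 and 0.62 and the iron exporter Slc40a1 (ferroportin) 0.03, and none of them was called. Hp and Hpx, the plasma carriers of hemoglobin and heme, had no count in RFPpos. The median of this list was 0.61, and it summed to 508 ± 21.6 CPM (SD, n = 5) in RFPneg and 817 ± 118 CPM (SD, n = 5) in RFPpos.

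Of 12 neutrophil genes, 10 were tested, and 8 were called lower and 0 higher, with a median log2 fold change of −4.88 (−4.75 with the genes at 0 in RFPpos at their bounds). Their summed level was 2753, 2978, 7378, 4463 and 2483 CPM in RFPneg of mice 1 to 5 and 126, 228, 256, 63.9 and 37.1 CPM in RFPpos. The most abundant, S100a8, which encodes a chain of calprotectin, was at 1952 ± 1148 CPM (SD, n = 5) in RFPneg and 23.1 ± 23.3 CPM (SD, n = 5) in RFPpos, and S100a9, its partner, at 1305 ± 623 and 29.5 ± 38.6 CPM (SD, n = 5). Camp and Retnlg had log2 fold changes of −5.24 and −4.89. Csf3r, a receptor gene of this list, was not called, with 70 counts in RFPneg and 84 in RFPpos (log2 fold change 0.41, edgeR adjusted p = 0.621). Ltf, Mmp9, Ly6g and Cxcr2 were at 0 in RFPpos, with 23, 13, 9 and 9 counts in RFPneg, and of these Ltf was called, Mmp9 was not and Ly6g and Cxcr2 were not tested.

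Of 8 monocyte genes, 7 were tested, and 5 were called lower and 0 higher (median log2 fold change −4.29, or −4.18 with bounds). They summed to 531 ± 123 CPM (SD, n = 5) in RFPneg and 26.3 ± 20.7 CPM (SD, n = 5) in RFPpos. Fn1, the most abundant, and Ccr2 had log2 fold changes of −4.29 and −3.13, and Chil3 and Ly6c2 had 73 and 59 counts in RFPneg and 0 in RFPpos, and were at least 22.3-fold and 18.1-fold lower. F10 had no count in any sample. Of 11 T and NK cell genes, 9 were tested, 4 were called lower and 0 higher, and 9 of the 11, among them Cd3e, Cd3d and Cd3g, had no count in RFPpos. Their median log2 fold change was −4.54, or −2.46 with 7 genes at their bounds, and they summed to 153 ± 49.1 CPM (SD, n = 5) in RFPneg and 5.85 ± 8.22 CPM (SD, n = 5) in RFPpos. Trbc2, the most abundant, was at least 16.2-fold lower and Nkg7 at least 11.9-fold lower against 3 counts over the group, Cd8b1 and Gzmb were also called lower, and Trac, with 18 counts in RFPneg and 3 in RFPpos (ratio 5.51, 1.61 to 29.2), was not called. Cd3d, Cd8a and Gzma were not called either, nor was Cd4, with 5 counts in each population.

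Most B cell and platelet genes were not called. Of 8 B cell genes, 6 were tested and 1 was called lower, the light chain gene Igkc, with 416 counts in RFPneg and 2 in RFPpos (RFPneg level 191 times that of RFPpos, exact 95% counting interval 52.6 to 1583). The heavy chain gene Ighm, the most abundant of the list by the mean over all 10 samples but under Igkc (308 CPM) in RFPneg, was at 222.5 ± 80.9 and 206 ± 34.9 CPM (SD, n = 5) and was not called. Ighd, with a log2 fold change of −0.16, and Ms4a1, with 11 counts in RFPneg and 3 in RFPpos (ratio 3.37, 0.890 to 18.8), were not called either. Cd79a and Pax5 were at 0 in RFPpos. The B cell list had a median of −0.76 and summed to 575 ± 152 and 231 ± 37.9 CPM (SD, n = 5). Of 12 platelet genes, Gp1ba, Gp5, Gp6 and Tubb1 were among those with no count in any sample, and 2 were tested and not called (median log2 fold change 0.36). Pf4, the most abundant, which brain border macrophages also make, was at 37.1 ± 5.96 CPM (SD, n = 5) in RFPneg and 45.1 ± 27.6 CPM (SD, n = 5) in RFPpos. Gp9 had 17 and 21 counts, Gp1bb 0 and 2, and Ppbp 2 and 0, in RFPneg and RFPpos. The platelet list summed to 55.4 ± 23.9 and 64.7 ± 32.9 CPM (SD, n = 5).

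Cells of the vessel wall and the brain showed both directions. All 10 endothelial genes were tested and called lower, with a median log2 fold change of −4.94, and their sum was 1467, 4763, 4956, 6540 and 3944 CPM in RFPneg of mice 1 to 5 and between 103 and 283 CPM in RFPpos. Flt1, the most abundant, Slco1a4, Kdr and Cldn5 had log2 fold changes of −5.20, −6.54, −3.77 and −3.38. Of the 20 microglia genes, 15 were called higher and 0 lower, with a median of 1.27 and sums of 19530 ± 3780 CPM (SD, n = 5) in RFPneg and 41084 ± 3890 CPM (SD, n = 5) in RFPpos. Ctss and Csf1r were called higher (1.31 and 1.32 on the log2 scale), and Cx3cr1 and Sparc, at 0.98 and 0.91, lay under the fold threshold. All 10 oligodendrocyte genes were called lower (median −3.79, or −3.71 with bounds), from a sum of 2289 ± 1065 to 267 ± 89.7 CPM (SD, n = 5), and Mbp, the most abundant, Mal, Cnp and Cldn11 had log2 fold changes of −2.21, −3.91, −1.98 and −5.47. Of 10 astrocyte genes 2 were called lower (median −0.40, sums of 4570 ± 724 and 3841 ± 1968 CPM, SD, n = 5), and Slc1a2, the most abundant, Slc1a3, Aldoc and Atp1b2 were not called. Of 10 neuron genes, 8 were tested and 3 called lower (median −1.87, sums of 276 ± 53.7 and 92.3 ± 44.9 CPM, SD, n = 5). Among them Map1b, the most abundant by the mean over all 10 samples, and Syt1 were not called, and Snap25 and Stmn2, the latter above Map1b in RFPneg (82.1 against 53.1 CPM), were lower. Whether the blood, vessel and brain cells behind these lists had a part in the globin difference was not tested.

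**Figure D3:**
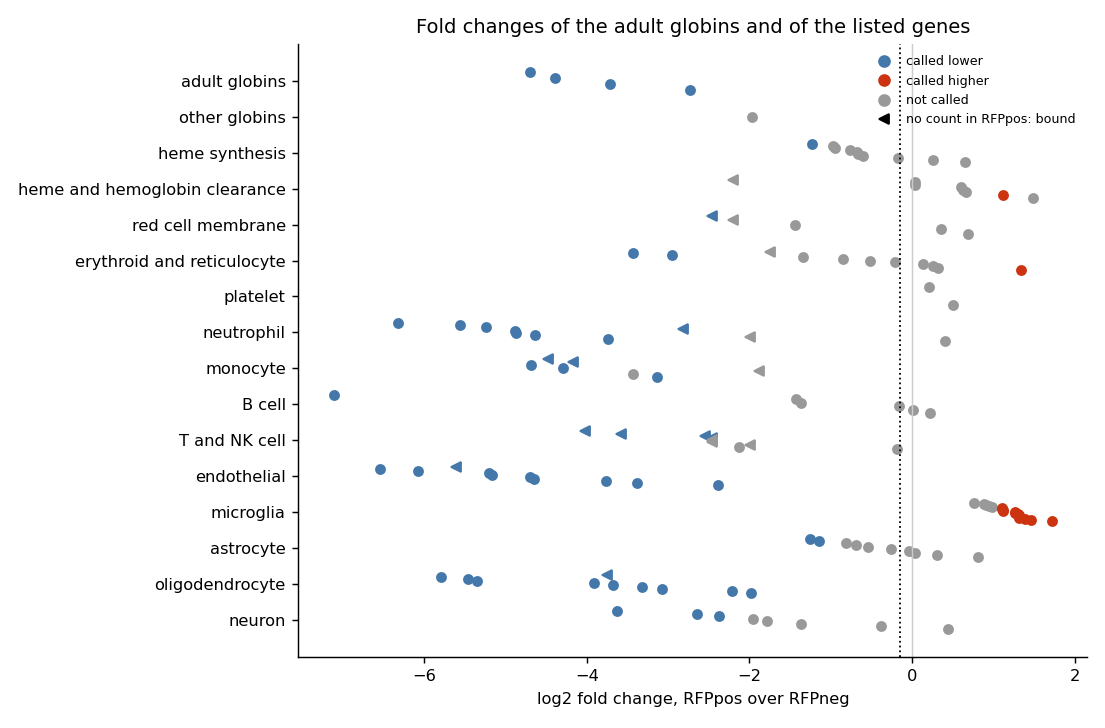
Log2 fold change of RFPpos over RFPneg (x axis) for the tested genes of each list (rows), with called genes in blue (lower) or red (higher) and others in grey. Triangles are bounds for genes with no count in RFPpos, and the dotted line is the median of all genes tested, −0.15. The 4 adult globins lie between −4.70 and −2.73, a range that also holds called genes with counts in RFPpos of the erythroid, neutrophil, monocyte, endothelial, oligodendrocyte and neuron lists.

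To ask whether the change of Hbb-bs differed from that of other cells' genes, the log2 ratio of Hbb-bs to the most abundant gene of 7 lists was compared within mice, after adding 2 CPM to each level. These genes were ranked by the mean over all 10 samples, which favours genes that were not lower in RFPpos. The ratio to Ctss of microglia was lower in RFPpos in 5 of 5 mice, by −6.49 ± 2.92 (SD, n = 5 mice) on the log2 scale. This direction was fixed beforehand, since Hbb-bs was lower and Ctss higher in RFPpos in 5 of 5 mice. The ratios to Pf4 and to Ighm were also lower in 5 of 5 mice, by −5.32 ± 3.43 and −5.21 ± 2.96 (SD, n = 5 mice). Pf4 and Ighm had log2 fold changes of 0.21 and 0.02, so that their ratios largely restate the fall of Hbb-bs. Ighm does not stand for its whole list, since Igkc, which was above it in RFPneg, had a log2 fold change of −7.11, and the choice between them bears on this ratio. The ratios to Ctss, Pf4 and Ighm each had p = 0.0625 (exact sign-flip permutation test, two-sided), the smallest that 5 pairs allow. Their adjusted p over the 7 lists was 0.146, and they add nothing beyond the fold changes already given. The ratio to Flt1 of the endothelium differed by 0.06 ± 1.98 (SD, n = 5 mice, exact permutation p = 1, adjusted p = 1) and that to Fn1 of the monocyte list, which vessel cells also make, by −0.23 ± 3.84 (SD, n = 5 mice, exact permutation p = 1, adjusted p = 1). The ratio to S100a8 of neutrophils differed by 1.95 ± 4.16 (SD, n = 5 mice, exact permutation p = 0.375, adjusted p = 0.613), and by between 0.75 (without mouse 5) and 3.09 (without mouse 3) with single mice left out. Relative to these 3 genes, single mice went in both directions, and the direction of the mean for Fn1 and Flt1 depended on the pseudocount or on single mice. Trbc2 of T cells had 0 counts in every RFPpos sample, so that its ratio there is set by the added 2 CPM (difference −1.05) and can neither show nor exclude a change relative to Hbb-bs. S100a8 was at 0 in RFPpos of mice 4 and 5, Fn1 in mice 1 and 5 and Hbb-bs in mouse 3, and these ratios rest on it as well.

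In RFPpos, the counts of Hbb-bs and of S100a8 came largely from different mice, with the exception of mouse 1. S100a8 and S100a9 together had 10, 23, 31, 0 and 0 counts in RFPpos of mice 1 to 5, and Hbb-bs had 16, 1, 0, 11 and 14. The samples of mice 4 and 5 thus held Hbb-bs and no count of the neutrophil pair, and the sample of mouse 3 held the pair and no Hbb-bs. The sample of mouse 1 had the most Hbb-bs of the RFPpos samples, at 71.9 CPM, and also held the pair, at 44.9 CPM. In CPM with exact 95% Poisson intervals, the pair was at 139 (94.4 to 197) in mouse 3, and 0 counts allow at most 14.7 in mouse 4 and 15.2 in mouse 5 by the same interval. Hbb-bs was at 43.9 (21.9 to 78.6) in mouse 4 and 57.7 (31.5 to 96.7) in mouse 5, and at most 16.5 in mouse 3. These differences were larger than counting error, the only error that the intervals cover. Whether they exceed the usual variation between mice was not tested. In RFPneg, mouse 3 was highest for S100a8 (3896 CPM) and mouse 4 for Hbb-bs (1288 CPM), and mouse 5 was lowest for both (1138 and 317 CPM).

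**Figure D4:**
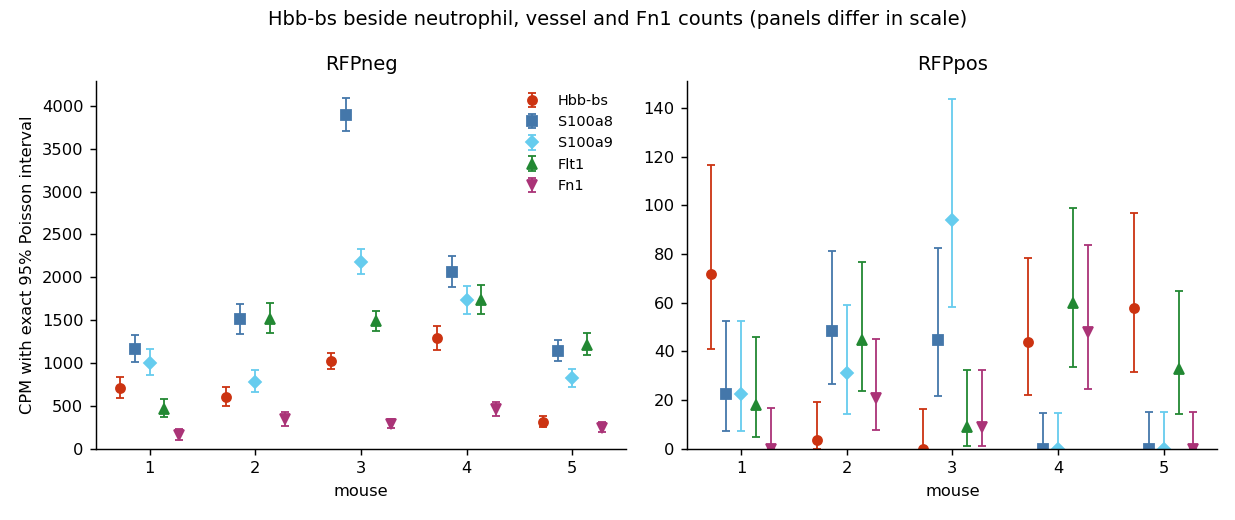
CPM of Hbb-bs, S100a8, S100a9, Flt1 and Fn1 by mouse in RFPneg (left) and RFPpos (right, on a smaller scale), with exact 95% Poisson intervals that cover counting error only. In RFPpos, mice 4 and 5 have Hbb-bs at 43.9 and 57.7 CPM without a count of S100a8 or S100a9, and mouse 3 has both of these without Hbb-bs. Mouse 1, with the highest Hbb-bs in RFPpos at 71.9 CPM, also has counts of S100a8 and S100a9.

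The genes most like Hbb-bs were sought among 4261 genes with a mean of at least 40 CPM, by Pearson's correlation of log2 CPM over the 10 samples after the mean of each population had been subtracted. They were Cacybp (r = 0.86), Alg1 (r = 0.84), Lnpep (r = 0.83), Zfp608 (r = 0.83) and Larp4 (r = 0.82). None of these was called lower in RFPpos, and Zfp608 was called higher (log2 fold change 1.40, edgeR adjusted p = 0.0291). In the RFPpos samples Hbb-bs varied from 0 to 16 counts, so that its deviations there rest on few counts. The highest and lowest of 4260 correlations over 10 samples can be large by chance, and none of them was tested. Hba-a1 came at rank 10 of 4260 (r = 0.79) and Hbb-bt at rank 35 (r = 0.73). Hba-a2 and Alas2, with means of 31.2 and 2.36 CPM over the 10 samples, lay under the 40 CPM limit and were not compared. Of the other listed genes compared, Flt1 had r = 0.37, and negative values were found for Cldn5 (r = −0.14), Car2 (r = −0.40), Ctss (r = −0.49), S100a8 (r = −0.57), S100a9 (r = −0.63) and, at the last rank, Igkc (r = −0.93), whose value in RFPpos rests on 2 counts.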

How the data were processed

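The 10 bulk samples (RFPneg and RFPpos from each of 5 mice) were analysed, and the 2 single-cell samples were not. The deposited counts are unnormalised counts of 3′ tags per Ensembl gene; per the authors' methods they come from a Lexogen QuantSeq pipeline with molecular identifiers, and the labels give mm10 for the series. The aligner and annotation of the bulk libraries are not given in the sources used here. Members and gene lists were chosen with earlier results of these data known. Median library counts on genes were 248471 (RFPneg) and 242798 (RFPpos). Intervals and floors (3 counts) cover counting error only. Genes with at least 10 counts over the 10 samples were fitted with edgeR 4.0.16 (R 4.3.3; TMM scaling; quasi-likelihood test; mouse and population as terms), with Benjamini-Hochberg adjustment over all genes tested. The installed default gave infinite prior degrees of freedom, so a fit with the quasi-dispersion adjusted for small counts was added after seeing the data. Other alternatives were RLE, library size or microglia scaling, DESeq2 1.42.0, edgeR's likelihood ratio test, other count filters, no block, and each mouse left out. Shares and ratios were compared by exact sign-flip permutation within mice (scipy 1.17.1). Samples were paired by mouse number in the labels. The 15 gene lists are each described in the text. Named were the 5 genes, of each list the 4 genes of highest mean CPM and any called gene of the heme, globin and red cell lists, and the 5 genes most like Hbb-bs. The genes Slc4a1, Klf1, Gzmb, Csf3r, Cd4, Cd8a, Gzma, Cd3d, F10, Hp and Hpx and those given as having no counts were named after their values were seen. Transcripts came from GENCODE M21 and promoters from RefSeq. Single values of some listed genes are not reported here.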

Additional observations from a re-analysis of the deposited data

Results flagged for a closer look

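Of 45 groups of 5 samples, 4 held a sample far from the others, where chance gives about 1 in 20. The share of Hbb-bt among beta globin counts was 11.2% in RFPneg of mouse 5, and the nearest other RFPneg sample was at 23.2%. The summed erythroid and reticulocyte genes were at 1636 CPM in RFPneg of mouse 1, with the nearest other sample at 1244 CPM. The summed T and NK cell genes were at 66.3 CPM in RFPneg of mouse 2, with the nearest other sample at 166 CPM. The summed genes of heme and hemoglobin clearance were at 546 CPM in RFPneg of mouse 2, with the nearest other sample at 504 CPM.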

How the results depend on the processing

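Hbb-bs, Hbb-bt, Hba-a1 and Hba-a2 were called lower in every alternative in which they were tested, 14 for Hbb-bs and 13 for each of the other genes, which filterByExpr left out. Their log2 fold changes ranged from −5.55 to −3.91 for Hbb-bs, from −5.89 to −4.16 for Hbb-bt, from −4.88 to −3.29 for Hba-a1 and from −3.85 to −2.42 for Hba-a2, with adjusted p of at most 0.00672 by edgeR or DESeq2. With no replicate block the log2 fold change of Hbb-bs was −4.42. After each population's mean was subtracted, the samples of a mouse correlated across genes by −0.00143 to 0.0852, which alone does not show the pairing. The authors' methods state that both populations came from the same mice, and which samples belong together rests on the labels. Alas2 had enough counts only for the fit to all genes with at least 1 count, in which it was not called. Scaled to the microglia list, 5196 genes were called lower and 7 higher, filterByExpr, with 4210 genes tested, gave 385 lower, and DESeq2 gave 206 higher, where the cause was not tested. The difference in alpha share was 11.5 points without the replicate block (exact permutation p = 0.00794, which ignores that samples share mice). It ranged from 7.95 to 13.4 points with single mice left out. That in Hbb-bt share ranged from −6.55 (without mouse 2) to 13.7 points. With a pseudocount of 0.5 CPM the log2 ratio of Hbb-bs to Fn1 differed by 0.12, to Trbc2 by 0.38 and to Flt1 by −0.36, and with 10 CPM by −0.59, −2.25 (exact permutation p = 0.0625) and 0.50, where that to Trbc2 is set by the pseudocount. With single mice left out the ratio to Fn1 ranged from −1.42 to 0.78 and that to Flt1 from −0.60 to 0.56. Other ratios kept their direction, and with single mice left out that to Ctss ranged from −7.31 to −5.51. Those to Pf4 and Ighm ranged from −6.35 to −4.28 and from −5.94 to −4.29. With 1 count worth up to 5.64 CPM, depth limits what can be said of Alas2, of the other globins and of shares within RFPpos.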
